A study of Rattus norvegicus with 145 samples.

Results

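The genes described here are 8 interferon effectors, Ifit1, Ifit2, Ifit3, Rsad2, Isg15, Cmpk2, Usp18 and Ifi44, out of 17337 genes listed in the liver count tables of Wistar rats gavaged with acetamide. They were taken by symbol, and they were chosen by measured values, since fold changes of several of them, Ifit1, Ifit3 and Rsad2 among them, stood out in earlier results of the same tables, so the levels and fold changes below are a description and carry no test. All 8 were found in each of the 5 tables. Experiment A held Hsd:WI males of 9 to 10 weeks given water vehicle or acetamide (30, 100, 300 and 1000 mkd, in mg/kg/day) and killed on day 8. Experiment B held Crl:WI males and females of 8 to 10 weeks given vehicle or 300, 500, 750, 1000 or 1500 mkd and killed on day 8 or day 29. The experiments thus differed in Wistar stock and supplier, which cannot be told apart from the experiment. Each of the 29 groups had 5 rats, and one library was made from the left liver lobe of each rat. One label of the day 29 control males names experiment A, and their titles were used to place them in experiment B.

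Interferons are secreted proteins that bind receptors on the cell surface, and the receptors act through JAK kinases on transcription factors. Such factors, IRF9 among them, bind an interferon response element in promoters and switch on a large set of antiviral genes. The members are well known targets of that route. Ifit1, Ifit2 and Ifit3 encode tetratricopeptide repeat proteins, of which IFIT1 binds foreign RNA. Rsad2 encodes viperin, an enzyme that makes a chain-terminating nucleotide from CTP, and Cmpk2 encodes the nucleotide kinase next to it in the genome. Isg15 encodes a ubiquitin-like modifier, Usp18 encodes the protease that removes it and that also dampens signalling at the type I receptor, and Ifi44 encodes a cytoplasmic protein induced by type I interferon.

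Of the 8 members, 4 had a promoter entry in RefSeq (GRCr8, 250 bases before the start of the gene to 50 after), and these sequences are shown because a pair of GAAA blocks, the core of an interferon response element, could be searched in them. The counts were made on Rn6, so the coordinates below are of GRCr8 only. The 160 bases before the start are printed for Ifit3 (chr1:241527166-241527325, plus strand), Rsad2 (chr6:48788121-48788280, minus strand), Cmpk2 (chr6:48802690-48802849, plus strand) and Ifi44 (chr2:243303841-243304000, minus strand), each 5′ to 3′ on the strand of its gene, with the matches in capitals.
Ifit3: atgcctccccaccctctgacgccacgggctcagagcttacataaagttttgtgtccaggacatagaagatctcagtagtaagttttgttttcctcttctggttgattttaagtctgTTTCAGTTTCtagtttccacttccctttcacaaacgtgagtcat
Rsad2: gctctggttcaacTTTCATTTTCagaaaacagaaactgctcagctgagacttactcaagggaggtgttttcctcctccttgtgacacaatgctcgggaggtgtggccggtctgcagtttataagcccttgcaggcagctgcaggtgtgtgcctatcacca
Cmpk2: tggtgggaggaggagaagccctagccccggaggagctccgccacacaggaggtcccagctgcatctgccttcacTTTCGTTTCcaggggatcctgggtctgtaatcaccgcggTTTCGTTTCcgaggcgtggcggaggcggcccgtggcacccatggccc
Ifi44: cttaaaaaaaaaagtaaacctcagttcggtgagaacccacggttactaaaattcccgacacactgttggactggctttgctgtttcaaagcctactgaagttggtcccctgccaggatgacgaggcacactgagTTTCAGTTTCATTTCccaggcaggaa

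The motif GAAANNGAAA, read on both strands, was found in 3 of these 4 promoters, Ifit3, Rsad2 and Ifi44, and in 3.92% of the 33469 promoters of the table. In Cmpk2 the blocks stood 1 base apart (GAAANGAAA), at -86 to -78 and at -47 to -39 from the start of the gene. This shorter form was added to the search after the sequences had been seen. It was found in 2 of the 4 promoters, Cmpk2 and Ifi44, and in 3.5% of all promoters, and in Ifi44 it overlaps the longer form. Every match in the 4 members reads TTTC on the strand of the gene. A second match of the longer form in Ifi44, at 26 to 35 after the start, is not printed. A match is a description of the letters and not a binding site. In the RefSeq gene table of the same assembly Ifit2, Ifit3, a relative of Ifit1 and Ifit1 lie in that order on chromosome 1, and Rsad2 and Cmpk2 are neighbours on opposite strands of chromosome 6.

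Each library held between 15449716 and 39986531 reads on genes. Levels are given as CPM, reads scaled to a common library size, after TMM scaling, which corrects for differences in composition between libraries. A rat was called high for a member when its log2(CPM + 0.5) lay at least 2 above the median of the 5 controls of its own table, a 4-fold step. By this rule 11 rats were high for at least 5 of the 8 members, and none of these was a control. They were replicate 5 at 300 mkd and replicates 2, 3, 4 and 5 at 1000 mkd in experiment A, replicates 1 and 3 at 750 mkd and replicates 2, 3 and 4 at 1500 mkd among females of day 8, and replicate 3 at 1500 mkd among females of day 29. Neither males table of experiment B held such a rat. On that log2 scale the values nearest the step from below were 1.99 for Usp18 in replicate 1 at 1000 mkd in experiment A, 1.98 for Rsad2 in replicate 1 at 1000 mkd among males of day 29, 1.98 for Usp18 in replicate 1 at 500 mkd among males of day 8 in experiment B and 1.97 for Ifi44 in replicate 5 at 300 mkd in experiment A. Those nearest from above were 2.03 for Ifit3 and 2.04 for Cmpk2 in replicate 1 at 1000 mkd in experiment A, a rat high for 4 members, and 2.06 for Cmpk2 in replicate 3 at 1000 mkd among males of day 29.

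**Figure D1:**
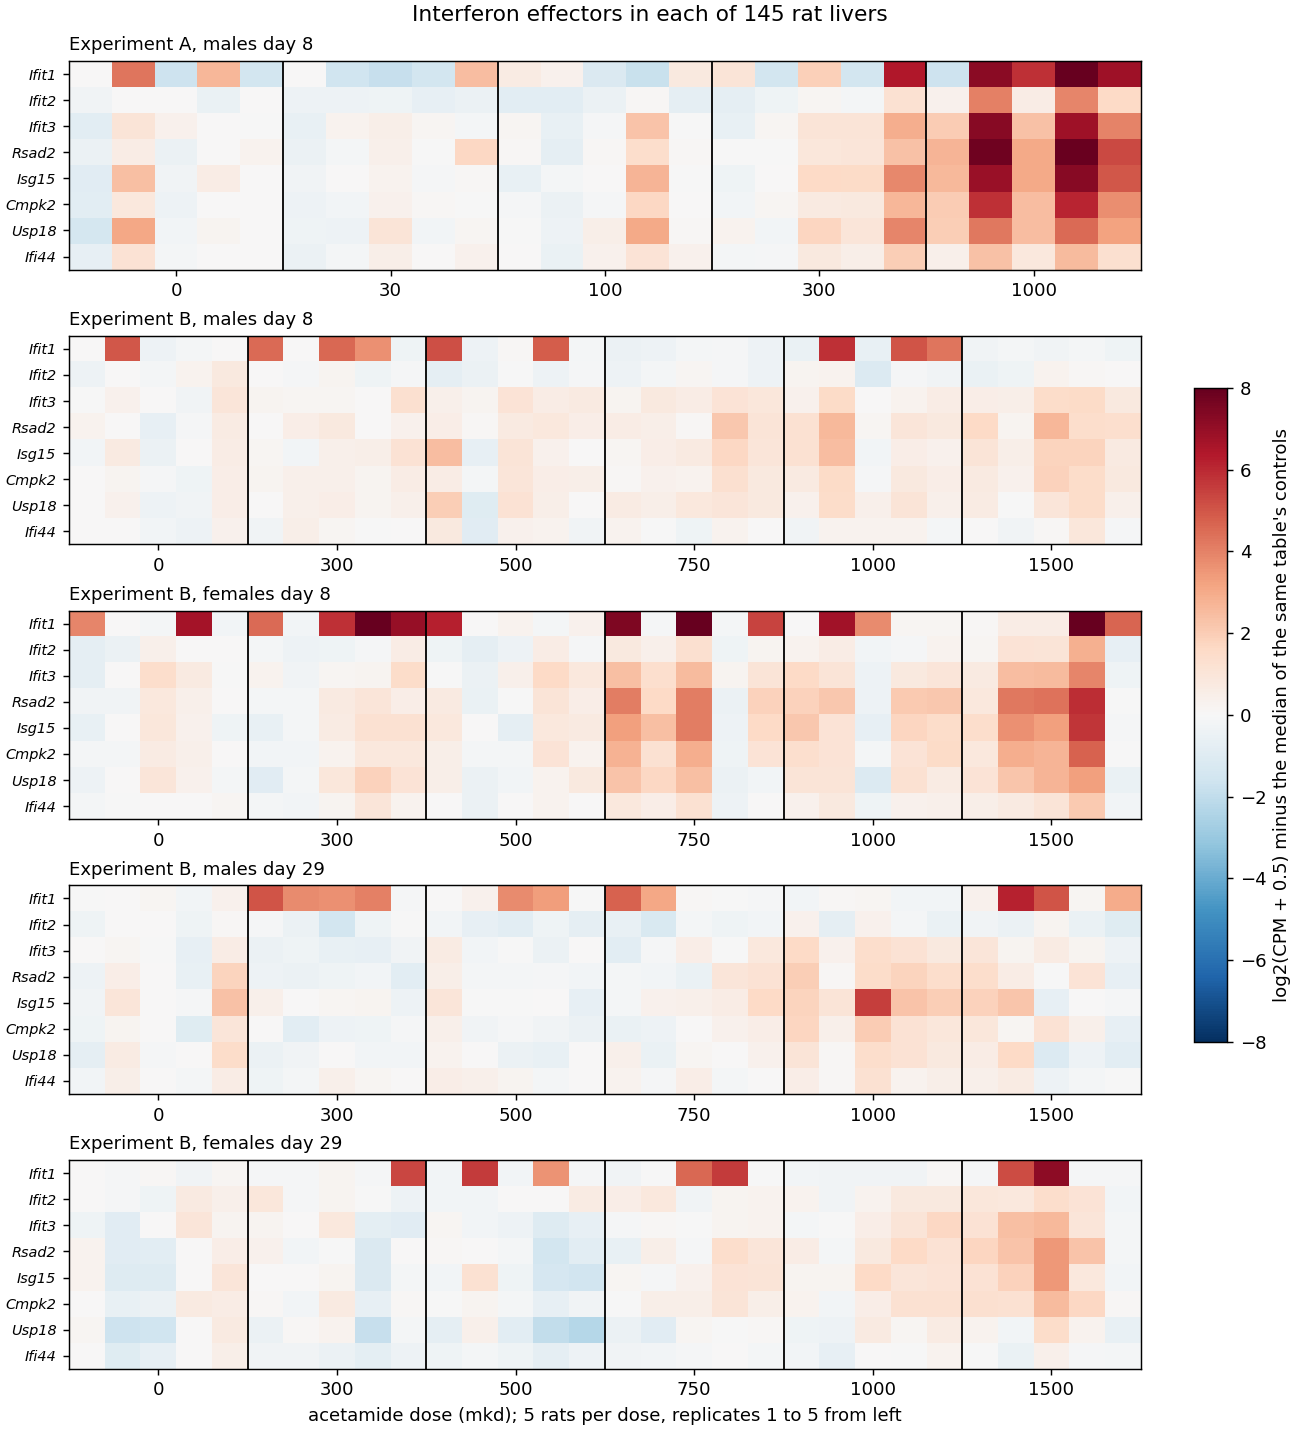
Heat map of the 8 members (rows) in each rat (columns, 5 per dose, doses in mkd along the axis) in the 5 tables, coloured by log2(CPM + 0.5) minus the median of the controls of the same table, with colours saturating at 8. The darkest columns are replicates 2 and 4 at 1000 mkd in experiment A and replicate 4 at 1500 mkd among females of day 8, while the Ifit1 row is dark in rats whose other rows are pale.

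High rats for single members were more common, and some were controls. In all, 63 rats were high for at least 1 member, and in 34 of them that member was Ifit1 alone. The control median of Ifit1 was 1.33 CPM in experiment A, where 3 of 5 controls were in the upper of 2 bands described below. In the tables of experiment B it was 0.075 to 0.25 CPM. The step for Ifit1 thus lay at unlike levels, and its counts are not comparable between the experiments. Among the 25 control rats 6 were high for at least 1 member, 2 of them for a member other than Ifit1. In experiment A control replicate 2 had 28.7 CPM of Isg15 and 116 CPM of Usp18, while the other controls had 2.46 to 7.92 and 4.52 to 15.6 CPM. That rat ranked first among the 5 controls for all 8 members. Control replicate 5 among males of day 29 also ranked first for all 8, with 54 CPM of Isg15 against 8.1 to 19.9 CPM in the other controls and 21.1 CPM of Rsad2 against 3.63 to 8.36 CPM. For Ifit1 these controls had 0 to 6 reads, so that rank gives no usable order. One rat ranked first for all 8 members in 5 of the 29 groups, and for at least 5 of them in 20 groups, with Ifit1 ranked whatever its reads.

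In experiment A each member had its highest group median at 1000 mkd, but the 5 rats differed widely. Rsad2 was 25.8, 874, 31.7, 960 and 154 CPM in replicates 1 to 5, against 2.32, 5.63, 2.34, 3.49 and 4.33 CPM in the controls. All 5 treated rats lay above all controls, and replicates 2 and 4 stood far above the other 3. Isg15 was 33.2, 670, 45.3, 852 and 169 CPM, against 2.46, 28.7, 4.05, 7.92 and 4.99 CPM. The lowest treated rat was just above control replicate 2. Ifit3 was 12.6, 507, 16, 360 and 49.6 CPM, against 1.26, 5.99, 3.55, 2.71 and 2.66 CPM. Here too the groups did not overlap, and the same pair of rats led. The share of all genes with such separation was not counted, while 41.9% had an unadjusted p under 0.05 in edgeR at this dose. Nothing is read from the separation of any member.

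Cmpk2 at 1000 mkd was 14, 206, 19.1, 245 and 45.5 CPM, and the controls reached 5.88 CPM. Ifit2 was 24.7, 325, 28.8, 292 and 58.9 CPM, and the controls reached 20.1 CPM. For Usp18 the treated rats had 53.2, 250, 75.8, 313 and 125 CPM, so replicates 1 and 3 lay below control replicate 2. Ifi44 was 29.6, 112, 40.8, 132 and 54.5 CPM, and replicates 1 and 3 again lay within the range of the controls, which reached 50.6 CPM. Ifit1 was 0.085, 271, 103, 1010 and 200 CPM, against 1.33, 35.4, 0.0756, 11 and 0.164 CPM in the controls, so replicate 1 lay within the range of the controls and the other 4 treated rats lay above it. In bulk liver a change in the number of cells of a type and a change in RNA per cell cannot be told apart.

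The fitted log2 fold change at 1000 mkd in experiment A was 6.82 ± 0.94 (SE, n = 5 per group) for Rsad2, 5.87 ± 0.99 for Ifit3, 5.2 ± 1.03 for Isg15, 5.08 ± 0.77 for Cmpk2 and 5.04 ± 1.78 for Ifit1. It was 3.07 ± 0.55 for Ifit2, 2.35 ± 0.87 for Usp18 and 1.52 ± 0.44 for Ifi44. The threshold was that of the study, a change of 1.5-fold or more in either direction with a false discovery rate (Benjamini-Hochberg) not above 0.05 in the comparison. At this dose 8 of 8 members passed upward in edgeR, where 21.4% of the genes tested passed in either direction. Nothing is read from that count, since the members were chosen with this contrast known. Fitted on only the control and 1000 mkd groups, 6 passed, without Ifit1 and Usp18, and 6 also passed without control replicate 1, 3, 4 or 5 or treated replicate 2 or 4. The median of the 8 was 5.06 on the log2 scale, and that of all genes tested was 0.

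At the lower doses of experiment A 0 of 8 members passed in edgeR, and 0% of all genes passed at 30, at 100 and at 300 mkd. At an unadjusted edgeR p under 0.05 there were 0 of 8 members, against 2.86%, 2.05% and 1.93% of all genes. DESeq2 was run at the highest dose of each table and, among males of day 29, at 1000 mkd. Single rats nevertheless stood out below 1000 mkd. At 300 mkd replicate 5 ranked first for all 8 members, with 77.8 CPM of Isg15 against 3.8 to 16.1 CPM in its 4 companions and 200 CPM of Usp18 against 11.1 to 43.1 CPM. At 100 mkd replicate 4 ranked first for 7 members, with 35.1 CPM of Isg15 against 3.17 to 5.06 CPM and 15.3 CPM of Ifit3 against 1.6 to 3.07 CPM. Ifit1, the member it did not lead, had a single read in that rat.

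**Figure D2:**
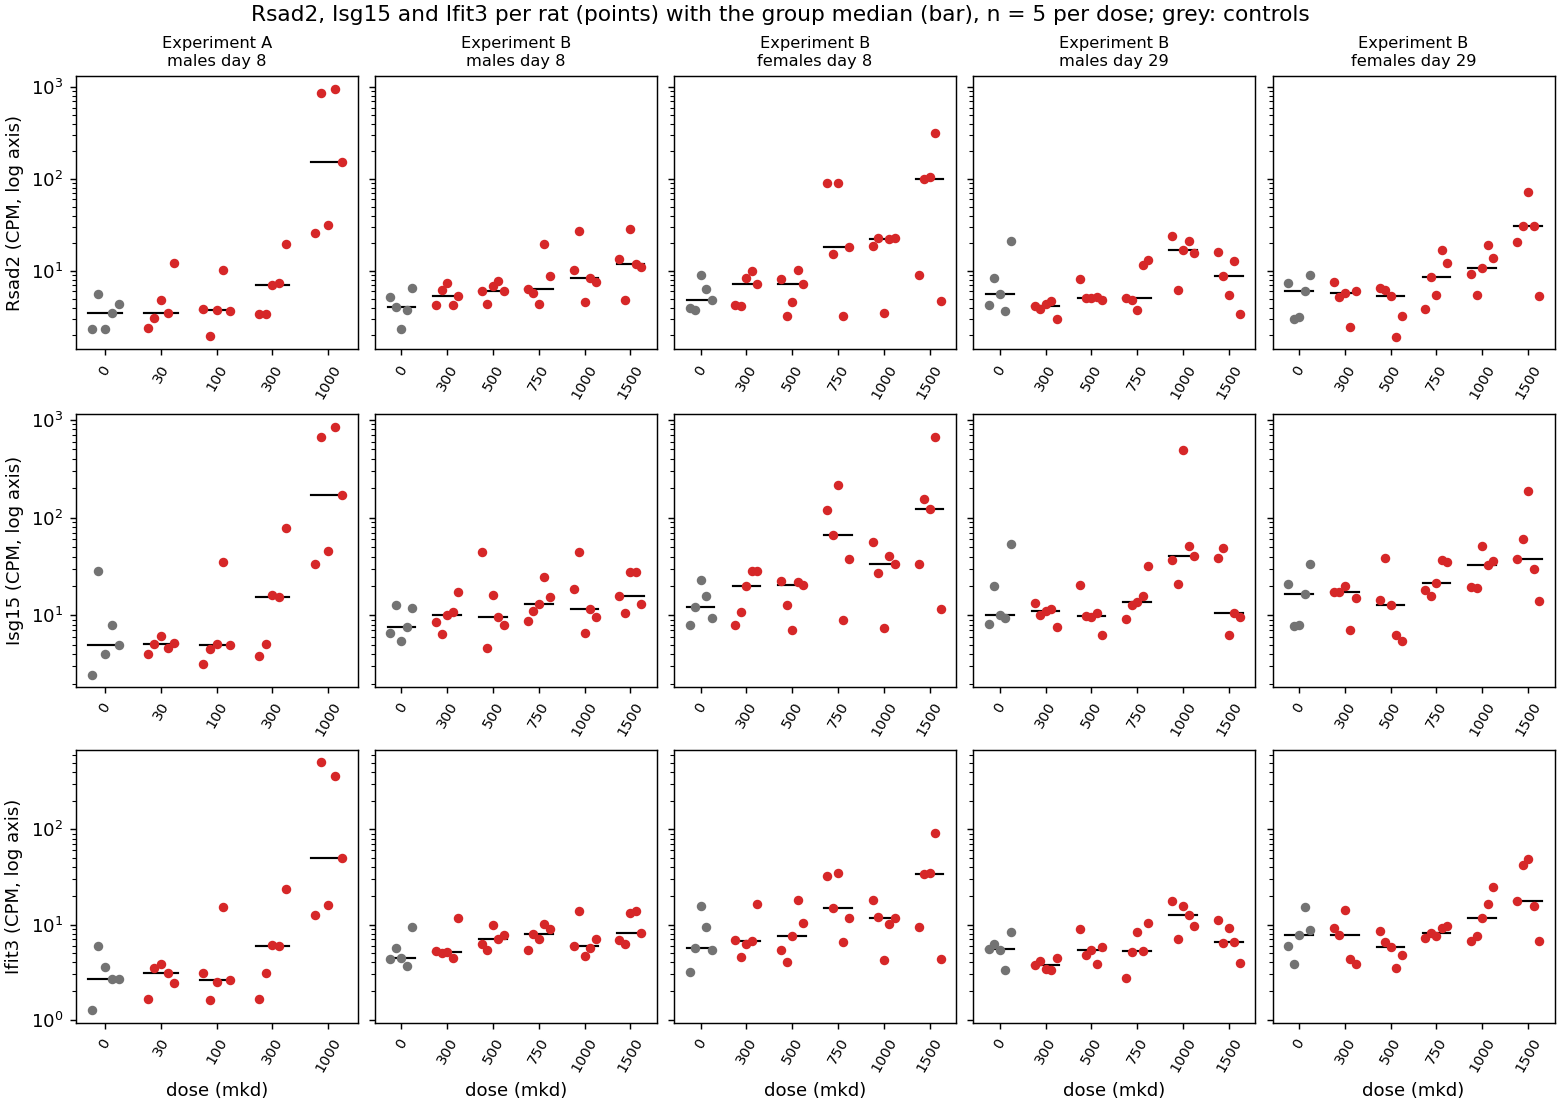
Rsad2, Isg15 and Ifit3 in CPM on log axes for each rat (points, grey for controls) by dose in mkd in the 5 tables, with the group median as a bar and 5 rats per dose. Rsad2 spans 25.8 to 960 CPM at 1000 mkd in experiment A and 4.75 to 321 CPM at 1500 mkd among females of day 8.

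Among females of day 8 the high rats appeared from 750 mkd upward and did not follow the dose in order. At 750 mkd Rsad2 was 91.3, 15.3, 89.6, 3.27 and 18.3 CPM in replicates 1 to 5, and the controls had 3.94, 3.79, 9.01, 6.4 and 4.81 CPM. Replicates 1 and 3 were far above the controls and replicate 4 was below them. At 1000 mkd it was 18.7, 23, 3.48, 22.1 and 22.9 CPM. At 1500 mkd it was 9.14, 99.1, 105, 321 and 4.75 CPM, with replicate 5 inside the control range.

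Isg15 followed the same rats. It was 33.4, 157, 123, 669 and 11.5 CPM at 1500 mkd among females of day 8, against 7.93, 12.1, 23.2, 15.7 and 9.32 CPM in the controls. Cmpk2 was 8.65, 38.8, 33.7, 135 and 4.51 CPM, and the controls reached 7.78 CPM. Ifit3 was 9.47, 33.7, 34.7, 90.5 and 4.39 CPM, and control replicate 3 had 15.6 CPM. Replicate 4 led for all 8 members, and replicate 5 was inside or below the range of the controls for every one of them.

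Of the 8 members 3 passed upward at 1500 mkd among females of day 8, Rsad2 (4.28 ± 0.86), Isg15 (3.86 ± 0.81) and Cmpk2 (3.03 ± 0.64), all on the log2 scale with n = 5 per group, where 0.705% of all genes passed. DESeq2 called 7. The edgeR count rests on few rats. It fell to 0 without any one of control replicates 1 to 5 or treated replicates 2, 3 or 4. It rose to 7 without treated replicate 1 or without treated replicate 5. The share of all genes was not taken in DESeq2 or in these reduced fits, so their counts cannot be weighed against one. At 300, 500, 750 and 1000 mkd 0 members passed in edgeR, and 0.0087%, 0.0174%, 0.0174% and 1.37% of all genes passed. At an unadjusted edgeR p under 0.05 there were 0, 0, 5 and 1 members, against 2.57%, 6.45%, 14% and 13.5% of all genes. At 750 mkd the median of the members was nonetheless 1.61 on the log2 scale, and at 1000 mkd it was 0.52.

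Among males of day 8 in experiment B the median log2 fold change of the members at 1500 mkd was 0.77. Rsad2 at 1500 mkd was 13.5, 4.79, 28.6, 11.8 and 11.1 CPM, against 5.14, 4.05, 2.34, 3.78 and 6.59 CPM in the controls. Only replicate 2 lay within the control range. Isg15 was 15.7, 10.6, 27.9, 27.5 and 13.1 CPM, and the controls reached 12.8 CPM. No rat of this table was high for 5 members, and the one with most, replicate 2 at 1000 mkd, was high for 3. In edgeR 0 of 8 members passed at 1500 mkd, where 0.177% of all genes passed. At an unadjusted edgeR p under 0.05 there were 5 members, against 12.6% of all genes. Among the 5, Ifit1 (-5.16) was lower than in the controls. DESeq2 called 3 there, Rsad2 and Cmpk2 upward and Ifit1 downward, and its share of all genes was not taken. At 300, 500, 750 and 1000 mkd 0 members passed, and 0% of all genes passed at each of these doses. Members at an unadjusted edgeR p under 0.05 numbered 0, 2, 2 and 4, against 1.41%, 3.32%, 7.65% and 4.7% of all genes. Among them Ifit2 at 500 mkd (-0.49) and Ifit1 at 750 mkd (-5.46) were lower than in the controls.

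Among males of day 29 the median log2 fold change of the members was 0.74 at 1000 mkd and 0.13 at 1500 mkd. Rsad2 was 23.9, 6.14, 16.8, 21 and 15.6 CPM at 1000 mkd, against 4.24, 8.36, 5.67, 3.63 and 21.1 CPM in the controls. At 1500 mkd it was 16.2, 8.82, 5.43, 12.9 and 3.4 CPM, all below control replicate 5. The difference between these doses, which share their controls, was not tested. Isg15 at 1000 mkd was 36.5, 20.8, 492, 51.4 and 40.2 CPM. Replicate 3 held 14918 reads of Isg15, while its Rsad2 and Ifit3 (16.8 and 15.6 CPM) lay within the range of its companions. Its Cmpk2 (20.5 CPM), Usp18 (112 CPM) and Ifi44 (62.9 CPM) were the highest of the group by less than 2-fold.

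At 1000 mkd among males of day 29, 3 of 8 members passed upward, Isg15 (2.66 ± 0.72), Cmpk2 (1.35 ± 0.36) and Ifit3 (1.12 ± 0.31), where 2.76% of all genes passed. That count was 0 without control replicate 1, 2, 3 or 4 and without treated replicate 2, 3 or 5, it was 1 without treated replicate 4, and it was 4 without control replicate 5. The log2 fold change of Isg15 was 0.86 without treated replicate 3. At 1500 mkd only Ifit1 passed, where 4.91% of all genes passed, and the other 7 members did not. That call was lost without control replicate 2 or 4 or treated replicate 2. At 300, 500 and 750 mkd 0 members passed in edgeR, and 0%, 0% and 0.78% of all genes passed. At an unadjusted edgeR p under 0.05 there were 2, 1 and 1 members, against 5.66%, 13.7% and 22.9% of all genes. They were Ifit1 at each of these doses and, at 300 mkd, Rsad2 (-1.1), which was lower than in the controls.

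Females of day 29 at 1500 mkd had 4 of 5 rats above all controls for Rsad2. Rsad2 was 20.6, 31, 72.1, 30.8 and 5.36 CPM, against 7.47, 3.02, 3.14, 6.03 and 9.12 CPM in the controls. Replicate 5 was inside the control range. Ifit3 was 17.6, 42.6, 49.1, 15.5 and 6.77 CPM, against a highest control of 15.3 CPM. Isg15 was 37.9, 60.2, 189, 30 and 13.9 CPM, and control replicate 5 had 33.6 CPM. Cmpk2 was 13.2, 12.5, 32.1, 17 and 5.57 CPM, and the controls reached 8.81 CPM. Usp18 (28.4 to 118 CPM) and Ifi44 (27.8 to 53.5 CPM) overlapped their controls, which had 13.2 to 72.5 and 20.6 to 56.4 CPM.

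At that dose 5 of 8 members passed upward, Ifit1 (7.59 ± 2.39), Rsad2 (2.48 ± 0.5), Isg15 (1.93 ± 0.56), Ifit3 (1.67 ± 0.44) and Cmpk2 (1.49 ± 0.37), where 13.1% of all genes passed. Without treated replicate 3 the count was 3, and it was also 3 with the replicate number as a block. Fitted on only the control and 1500 mkd groups, only Rsad2 passed, and Ifit1 was removed there by the filter on low counts. At 300, 500, 750 and 1000 mkd 0 members passed in edgeR, and 0%, 0.0349%, 0.183% and 1.59% of all genes passed. At an unadjusted edgeR p under 0.05 there was 1 member at each of these doses, against 3.49%, 11.4%, 15.6% and 19.4% of all genes. It was Ifit1 at 300, 500 and 750 mkd and Rsad2 at 1000 mkd. No member passed downward in edgeR at any dose of any table.

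Ifit1 did not behave like the other 7 members. Its reads were split into 2 bands at the widest step between neighbouring rats in the sorted reads, so the gap between bands is empty by rule. This put 89 rats at 0 to 13 reads and 56 rats at 38 to 37650 reads, a step of 2.79-fold on reads + 1. In the 120 rats of experiment B the step was 7.36-fold, from 13 to 102 reads. Over all rats the widest steps of Ifit3 (6.66-fold) and Rsad2 (5.72-fold) were larger, but each set only 2 rats apart. Both bands were present in each table, with 15 of 25 rats in the upper band in experiment A, 9 of 30 among males of day 8, 14 of 30 among females of day 8, 11 of 30 among males of day 29 and 7 of 30 among females of day 29. Of the controls, 6 of 25 were in the upper band, and of the treated rats 50 of 120. For instance, female control replicate 4 of day 8 had 58.7 CPM of Ifit1 with 6.4 CPM of Rsad2, and male control replicate 2 of day 8 in experiment B had 23.2 CPM with 4.05 CPM.

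**Figure D3:**
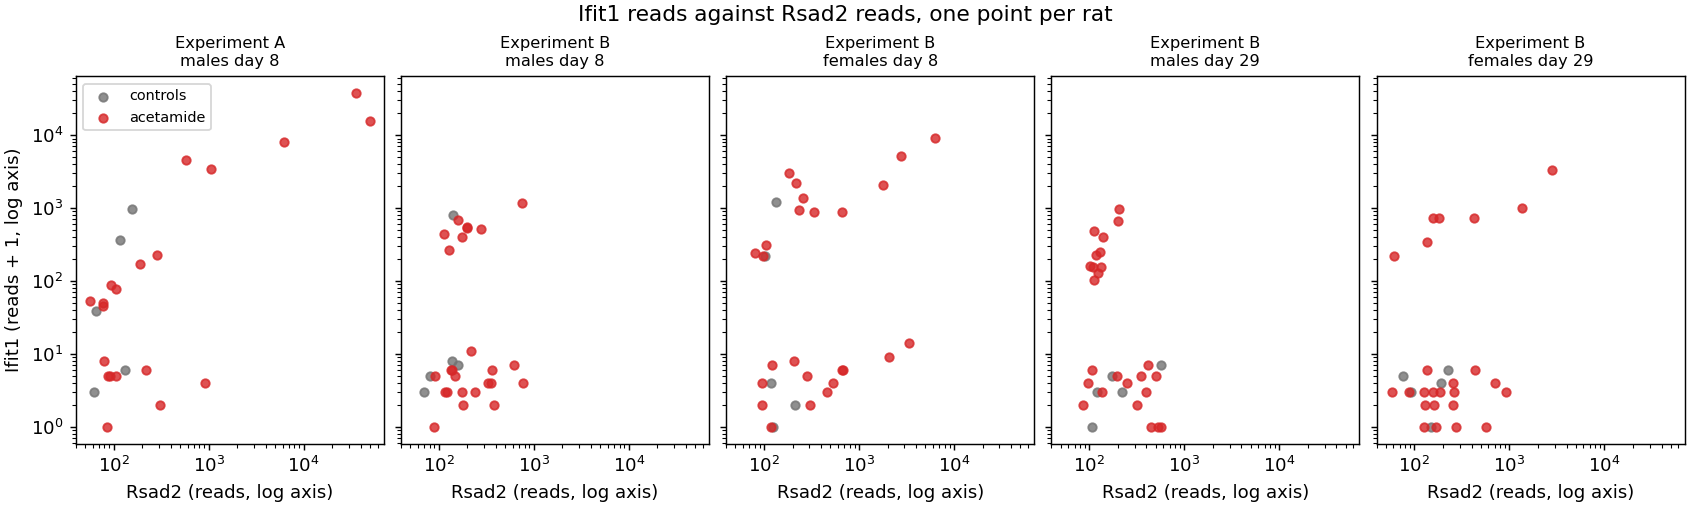
Ifit1 reads plus 1 against Rsad2 reads, both on log axes, with one point per rat (grey for controls, red for acetamide) in the 5 tables. The points form an upper band that climbs with Rsad2, to 37650 reads of Ifit1, and a lower band that stays at or below 13 reads.

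The lower band stayed low in rats whose other members were high. Replicate 1 at 1000 mkd in experiment A had 3 reads of Ifit1 with 910 reads of Rsad2. Replicates 2 and 3 at 1500 mkd among females of day 8 had 13 and 8 reads of Ifit1 with 3349 and 2079 reads of Rsad2. Within the upper band Ifit1 followed the others. Over its 56 rats, log2(reads + 1) of Ifit1 and the mean rise of the other 7 members had a Pearson's r of 0.87 and a Spearman's rho of 0.86, and r was 0.84 without the 2 rats farthest on the latter. Within single tables r in the upper band was 0.75 to 0.96, and without the 2 farthest rats 0.41 to 0.96. Over the 89 rats of the lower band r was 0.22 and rho 0.23, at a median of 3 reads, and r was 0.1 without the 2 farthest rats. Within single tables r in the lower band was -0.31 to 0.58, the highest among females of day 8, where it was 0.3 without the 2 farthest rats. These correlations are descriptions across rats that share tables, dose groups and library scaling.

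The bands bear on every Ifit1 fold change. Among males and females of day 29, 0 of 5 controls were in the upper band, with 0 to 6 and 0 to 5 reads, and 3 and 2 of 5 rats were in it at 1500 mkd, where the fitted log2 fold changes were 6.95 ± 1.78 and 7.59 ± 2.39. At 1000 mkd 0 of 5 rats were in the upper band in either sex. Among males of day 8 in experiment B 1 of 5 controls and 0 of 5 rats at 1500 mkd were in it, and the fitted value was -5.16 ± 1.93. With the controls in the lower band such fitted values depend on the prior count and are no measure of size. In both males tables of experiment B and among females of day 29 Ifit1 passed the filter on low counts through rats of other dose groups, since it did not pass when only the control and the 1500 mkd group were fitted. In experiment A and among females of day 8 it passed in that fit too. A relative of Ifit1 lies near it in GRCr8, and whether the counting divided reads between them was not tested.

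The other 7 members moved together within dose groups. Deviations of log2 CPM (prior count 2) from the group mean over all rats gave a Pearson's r of 0.51 to 0.91 for the 21 pairs without Ifit1, with a median of 0.79, and a Spearman's rho of 0.46 to 0.86. Without the 2 rats farthest from the rest, replicate 5 at 300 mkd in experiment A and replicate 4 at 1500 mkd among females of day 8, r was 0.47 to 0.9. The highest pairs were Rsad2 with Cmpk2 (0.91), the neighbours on chromosome 6, and Ifit3 with Cmpk2 (0.9). The lowest was Ifit2 with Usp18 (0.51). By table, Rsad2 with Cmpk2 had an r of 0.93 in experiment A, 0.98 among females of day 8, 0.85 and 0.7 among males of day 8 and day 29 in experiment B and 0.88 among females of day 29. Ifit2 with Ifi44 had 0.79 in experiment A and 0.84 among females of day 8, but -0.03 among males of day 8 in experiment B and 0.11 among males of day 29. The rats share tables, total depth and scaling, and these values are descriptions.

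**Figure D4:**
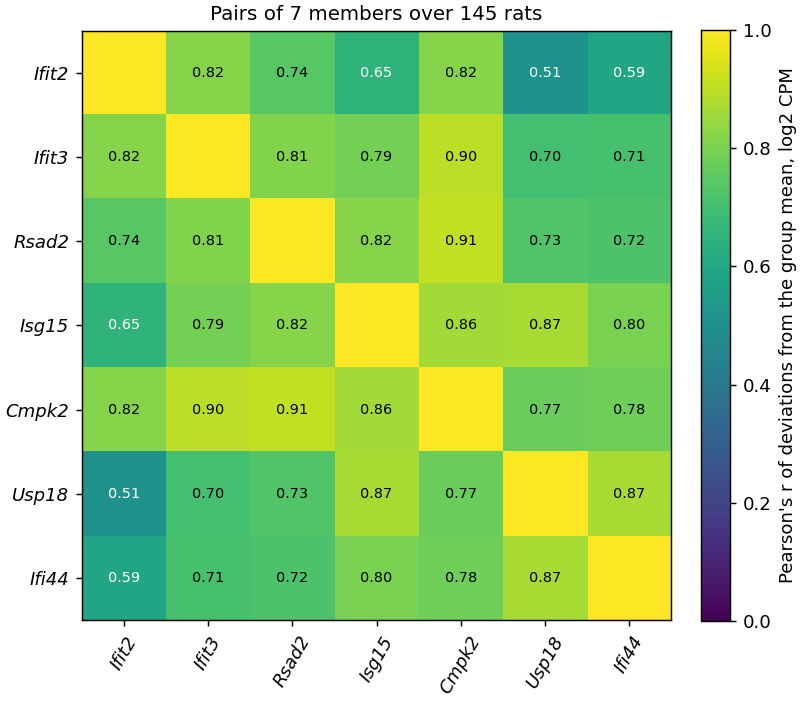
Pearson's r of within-group deviations of log2 CPM for each pair of the 7 members other than Ifit1 over all rats, as colour and number. Values run from 0.51 for Ifit2 with Usp18 to 0.91 for Rsad2 with Cmpk2.

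Over the 11058 other genes tested in all 5 tables, 15 had an r above 0.8 with the mean of the members' scaled deviations. The 10 highest were Uba7 (0.92), the activating enzyme for ISG15, Irf7 (0.92), an interferon regulatory factor that amplifies the response, the dynamin-like GTPases Mx1 (0.91) and Mx2 (0.88), the oligoadenylate synthetase relatives Oasl (0.9), Oas1a (0.86) and Oasl2 (0.83), the RNA sensor Dhx58 (0.89), the lectin Lgals9 (0.83) and the nuclear body gene Sp110 (0.83). Without the 2 farthest rats their r was between 0.8 and 0.91. All 10 belong to the interferon lists written for the pathway with earlier results of these data known, so nothing is read from that membership. Oas and Mx genes have close relatives in the genome, and the division of reads among them is uncertain. Of the 10, 8 had a promoter entry, and GAAANNGAAA was found in 5 of these, Irf7, Lgals9, Oas1a, Oasl2 and Sp110.

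The wider pathway was read from lists of ligands, receptors, sensors and targets. Of the interferon ligands 6 were in the tables, and 0 had enough reads to be tested in any table. Ifna1 and Ifna2 were listed at 0 in every rat, Ifna4 had at most 2 reads in a rat, Ifng at most 3, Ifnb1 at most 4 and Ifnk at most 12. A change in ligand RNA was thus not detectable at this depth.

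At 1000 mkd in experiment A 3 of 10 tested genes of the receptor, JAK and STAT list passed upward, with a median log2 fold change of 0.45, where 21.4% of all genes passed in either direction. Among these, Jak2 rose by 0.67 ± 0.18 (edgeR adjusted p = 0.00679) and Il10rb by 0.61 ± 0.15 (adjusted p = 0.00391). Stat2 had 0.18 ± 0.25 (adjusted p = 0.615) and Irf9 0.82 ± 0.33 (adjusted p = 0.0646). Ifnar1, a chain of the type I receptor, had 0.27 ± 0.1 with an adjusted p of 0.0468, under the fold criterion. Of the sensors and Irf genes 10 of 14 passed upward, led by Irf7 (4.09 ± 0.91, adjusted p = 0.00205), the nucleic acid sensor Zbp1 (4.06 ± 0.78, adjusted p = 0.000763) and Tlr7 (1.77 ± 0.36, adjusted p = 0.00105). Irf5 (1.07) and Irf8 (0.85) also rose, while Irf1 (0.73, adjusted p = 0.144) and Irf3 (-0.4, adjusted p = 0.0366) did not pass.

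Among the effectors closest to the members, 11 of 11 Oas, Mx and other antiviral genes passed upward in experiment A at 1000 mkd, where 21.4% of all genes passed in either direction. They were led by Mx2 (5.23 ± 1.07, edgeR adjusted p = 0.00115), Oasl2 (4.82 ± 0.81, adjusted p = 0.000307) and Oasl (4.76 ± 0.91, adjusted p = 0.000719). For ISG15 conjugation and signalling brakes it was 3 of 5, Uba7 (2.95), Socs1 (2) and Ube2l6 (1.21), the last being the conjugating enzyme for ISG15. Of the other type I induced genes 19 of 24 passed, led by Lgals3bp (3.05), Slfn3 (2.69) and Isg20 (2.35), and of the interferon gamma targets 12 of 15, led by Gbp4 (5.31), Cxcl10 (4.21) and Gbp5 (3.37). These lists were written with earlier results of these tables known, and no gene of these 6 lists passed downward at this dose.

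Among females of day 29 at 1500 mkd 25 genes of these lists passed in one direction or the other, where 13.1% of all genes passed. The upward counts were 6 of 11 for the Oas and Mx list, led by Oas2 (2.39), Oasl2 (2.29) and Oas3 (1.98), 5 of 14 for sensors and Irf genes, led by Irf7 (2.47), Zbp1 (1.94) and Tlr7 (1.37), 5 of 24 for other type I genes, 5 of 15 for interferon gamma targets, led by Gbp4 (4.07), 2 of 5 for conjugation and brakes and 1 of 10 for receptors, Ifngr1 (0.68). Of the sensor list Mavs, the adaptor of cytoplasmic RNA sensors, fell (-0.6). Stat2 had -0.07 (adjusted p = 0.808) and Irf9 -0.01 (adjusted p = 0.988) in these females.

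Among females of day 8 at 1500 mkd 4 list genes passed in edgeR, all upward, where 0.705% of all genes passed. They were Gbp4 (2.59, adjusted p = 0.038), Lgals3bp (1.84, adjusted p = 0.0437), Uba7 (1.8, adjusted p = 0.038) and Phf11 (1.48, adjusted p = 0.0477). The Oas and Mx list had a median of 1.81 with 0 of 11 past the threshold, and Irf7 had 2.29 (adjusted p = 0.0722). Males of day 8 in experiment B at 1500 mkd had 0 list genes past the threshold in edgeR, where 0.177% of all genes passed. DESeq2 called 3, and its share of all genes was not taken. In males of day 29 at 1000 mkd Ifi27l2b (1.47), Mx1 (1.22), Isg20 (1.18) and Ube2l6 (0.79) rose and Trim25 (-0.71) fell, where 2.76% of all genes passed. At 1500 mkd Ifih1 (-0.74) and Eif2ak2 (-0.61), both proteins that sense double-stranded RNA, fell, where 4.91% of all genes passed. That was 1 of 14 sensor and Irf genes and 1 of 11 Oas and Mx genes, and the other interferon lists had 0. Nothing is read from these falls. The difference of these responses between sexes, days and experiments was not tested.

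**Figure D5:**
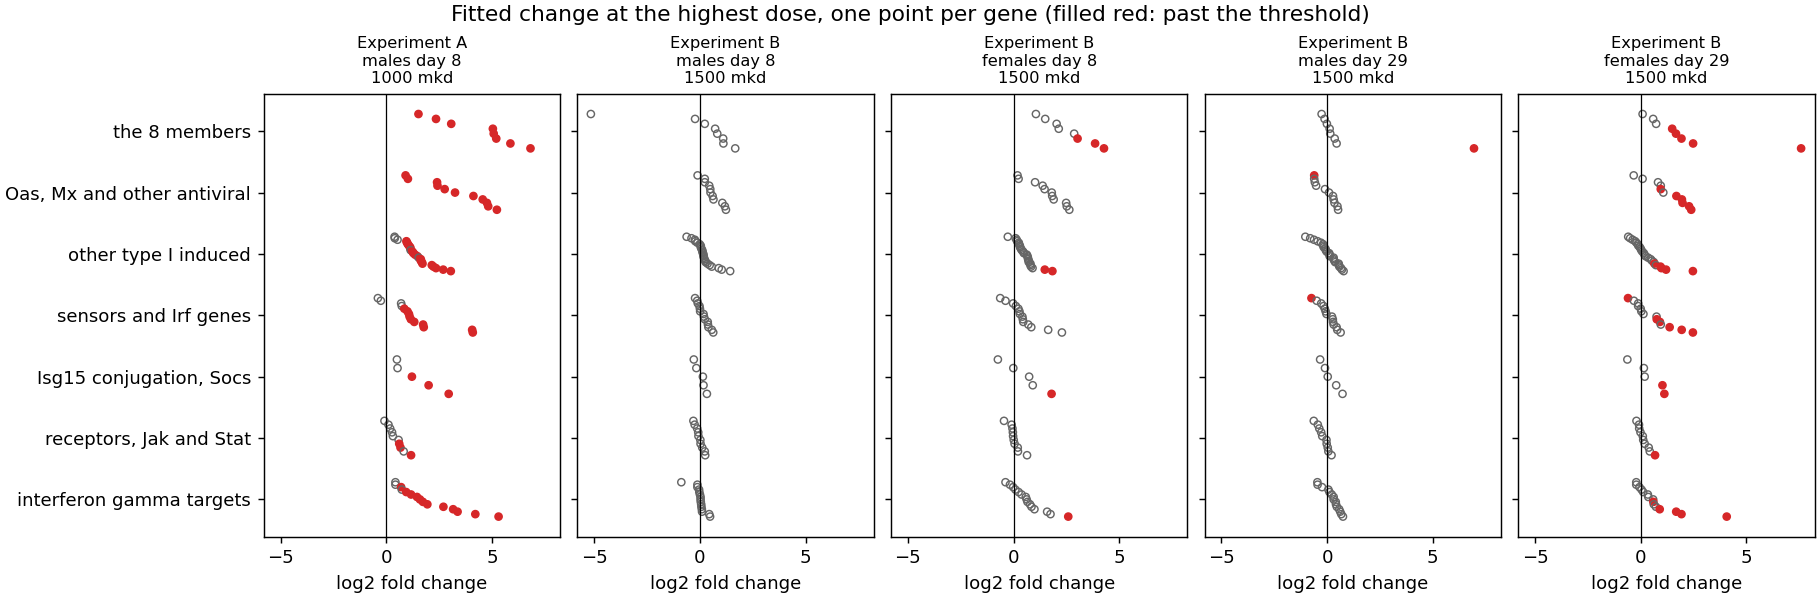
Fitted log2 fold change at the highest dose of each of the 5 tables, with one point per gene for the 8 members and 6 lists of the interferon pathway, filled red where the gene passed the threshold. At 1000 mkd in experiment A 8 of 8 members and 11 of 11 Oas and Mx genes are filled, where 21.4% of all genes passed. In males of day 29 the lone filled member is Ifit1 at 6.95, where 4.91% of all genes passed. Members and lists were chosen with earlier results known.

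Markers of other cells moved with the members in part of the tables. In experiment A at 1000 mkd 7 of 11 tested macrophage markers and 8 of 9 T and NK cell markers passed upward, and 4 of 10 hepatocyte markers passed downward, where 21.4% of all genes passed in either direction. The summed macrophage markers were 1370 to 2460 CPM, against 591 to 1670 CPM in controls, the T and NK markers 42.3 to 77.1 against 24 to 30.5 CPM, and the hepatocyte markers 86100 to 265000 against 270000 to 358000 CPM. Among females of day 29 at 1500 mkd 4 of 11 macrophage and 2 of 8 T and NK markers passed upward, where 13.1% of all genes passed, and the sums were 1250 to 2260 against 1050 to 1290 CPM and 36.4 to 75.9 against 20.4 to 48.7 CPM. Of the hepatocyte markers 2 of 10 passed downward and 1 upward in these females, and their sum was 103000 to 209000 against 209000 to 400000 CPM. Of the plasmacytoid dendritic cell markers, 3 of 5 passed upward in experiment A at 1000 mkd and 1 of 6 among females of day 29, and 2 of them, Irf8 and Bst2, are also interferon list genes. Neutrophil markers passed in both directions in experiment A (1 up and 2 down of 4) and upward for 2 of 4 among females of day 29, and Elane or Mpo was at 0 in all rats of 8 groups. None of the B and plasma cell markers passed at the doses shown.

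Rat by rat some sums stood in the order of some members and others did not. In experiment A at 1000 mkd the plasmacytoid dendritic sum was 245, 620, 265, 564 and 406 CPM in replicates 1 to 5, in the same order as Ifit2 and Ifit3. That marker list holds Irf8 and Bst2, which are also interferon list genes. Neither its sum nor its r below was taken without them, so nothing about cells is read from either. The hepatocyte sum was 242000, 86100, 265000, 158000 and 147000 CPM, lowest in replicates 2, 5 and 4, the rats with most Rsad2. By contrast, replicate 2 had the lowest macrophage sum of its group, 1370 CPM, with 874 CPM of Rsad2, and replicate 5 had the highest, 2460 CPM, with 154 CPM. Over all rats the within-group r between the members' mean and the mean of a list was 0.93 for the Oas and Mx list. It was 0.94 for other type I genes and 0.82 for interferon gamma targets. For markers it was 0.38 for macrophages, 0.3 for T and NK cells, 0.29 for plasmacytoid dendritic cells and -0.22 for hepatocytes. The part of such cells in the levels of the members was not tested.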

How the data were processed

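Liver RNA of 29 groups of 5 rats was sequenced from stranded mRNA libraries. The authors trimmed the reads with Trimmomatic, aligned them with Bowtie2 to Rn6 and summed the reads of each gene with HTSeq, in versions not given in the sources used here. They deposited raw counts for 17337 genes in 5 tables, without normalization. The HTSeq summary lines in experiment B (35.5 to 67.1% of the counts of a rat) were left out. 0 columns were left unmapped.

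Dose groups were compared with the vehicle controls of the same table by the quasi-likelihood test of edgeR 4.0.16 (R 4.3.3), with TMM scaling (factors 0.735 to 1.91), its filter on low counts (11279 to 11497 genes kept) and all dose groups of a table in one fit. Criteria were those of the study. The method was tested on simulated data. The fitted log2 fold changes use edgeR's default prior count. The alternatives were DESeq2 1.42.0, its size factors, no filter, a replicate block, a fit of only the control and tested dose, and leaving out each rat. Correlations used log2 CPM with a prior count of 2. Sequences came from RefSeq (GRCr8), matched by symbol.

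The members, lists and alternatives were chosen with earlier results of these data known. The genes named are the members, in each interferon list up to 3 genes with the largest change among those called at the highest dose, the ligands, the Ifnar, Stat and Irf genes, and the 10 genes most like the members. Mavs, the genes named for males of day 29 at 1000 mkd and Ugt2b were named after their values were seen. Each library came from a separate rat, so p-values set a difference between groups against the spread between rats. That spread was estimated with all dose groups of a table in one fit, and for the members it was unequal between groups. In experiment A Rsad2 had a mean of 409 and an SD of 467 CPM at 1000 mkd, against 3.62 and 1.4 CPM in the controls. The values of some pathway genes are not reported here.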

Additional observations from a re-analysis of the deposited data

Results flagged for a closer look

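Single rats were compared with the other 4 of their group for each member, on log2(CPM + 0.5), by Dixon's ratio at 0.71. Of 232 comparisons 19 held a rat apart, 12 at the high end and 7 at the low end, where chance alone gives about 1 in 20. The 8 members of a rat are not independent, so 1 rat can hold several of these.

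At 100 mkd in experiment A replicate 4 stood above its group for Ifit3 (15.3 CPM), Isg15 (35.1 CPM), Cmpk2 (10.5 CPM) and Usp18 (108 CPM). In females of day 8 at 1000 mkd replicate 3 stood below its group for Rsad2 (3.48 CPM), Cmpk2 (4.13 CPM) and Usp18 (13.3 CPM). Replicate 3 among males of day 29 at 1000 mkd stood apart for Isg15 (492 CPM).

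Ifit1 set 5 rats apart. They were male control replicate 2 of day 8 in experiment B (23.2 CPM), replicate 1 at 500 mkd among females of day 8 (43 CPM), replicate 5 at 300 mkd among males of day 29 (0.0341 CPM, the only rat of its group in the lower band), and replicate 5 at 300 mkd (24.4 CPM) and at 1000 mkd (0.16 CPM, still in the lower band) among females of day 29.

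The remaining ones were Ifit3 in replicate 5 at 300 mkd among males of day 8 (11.6 CPM), Ifit2 in replicate 5 at 300 mkd among females of day 8 (46.3 CPM), Ifit2 in replicate 3 at 300 mkd (7.51 CPM) and Rsad2 in replicate 1 at 500 mkd (8.18 CPM) among males of day 29, and Isg15 (7.11 CPM) and Ifi44 (23.4 CPM) in replicate 4 at 300 mkd among females of day 29.

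At 1500 mkd every male of day 8 in experiment B lay below its control median for Ifit1, while every female of day 8 and every male of day 29 lay above theirs. The medians differed by 0.87 and 3.25 on the log2(CPM + 0.5) scale. These differences were not tested. All 5 males of day 8 had 3 to 5 reads, in the lower band, and so were 3 of the 5 females of day 8 (4, 13 and 8 reads) and 2 of the 5 males of day 29 (6 and 4 reads). The 0.87 rests on a female with 8 reads, and such reads give no usable order.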

How the results depend on the processing

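The 8 members called at 1000 mkd in experiment A stayed at 6 to 8 with single rats left out and in every other setting tried, and the pathway genes called, 58, stayed at 50 to 60. At the other doses the counts depended on the setting. The share of all genes called was taken for the main edgeR fit only, so counts in the other settings have no share to be weighed against. In males of day 8 of experiment B at 1500 mkd DESeq2 called 3 members and 3 pathway genes against 0 and 0, and single rats left out gave 0 to 1 and 0 to 0. In females of day 8 at 1500 mkd, with 3 members and 4 pathway genes called, DESeq2 called 7 and 11, a replicate block 0 and 0, only the control and tested dose 0 and 0, and single rats left out gave 0 to 7 and 0 to 25. In males of day 29 at 1500 mkd, with 1 and 2 called, DESeq2 called 5 pathway genes, only the control and tested dose gave 0 and 1, and single rats left out gave 0 to 1 and 0 to 5. In males of day 29 at 1000 mkd, a comparison whose alternatives were added after seeing the data, 3 members and 5 pathway genes were called. There DESeq2 called 13 pathway genes, the replicate block 10, only the control and tested dose 12, and single rats left out gave 0 to 4 members and 1 to 15 pathway genes. In females of day 29 at 1500 mkd, with 5 and 25 called, the replicate block gave 3 members, only the control and tested dose 1 member and 12 pathway genes, and single rats left out 3 to 6 and 17 to 30. The causes were not tested.

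Single members that changed sign had small or uncalled values. Ifit2 in males of day 29 at 1000 mkd was -0.02 without the filter, -0.01 with the replicate block and -0.01 with only the control and tested dose, and -0.15 to 0.12 with single rats left out. With single rats left out Ifit1 in females of day 8 at 1500 mkd was -1.9 to 5.51, and Ifi44 was -0.02 to 0.34 in males of day 8 and -0.06 to 0.31 in females of day 29. In males of day 29 at 1500 mkd Rsad2 was -0.19 to 0.75, Isg15 -0.34 to 0.9, Usp18 -0.75 to 0.26 and Ifi44 -0.18 to 0.09. At 8-fold instead of 4-fold, 4 rats and not 11 were high for at least 5 members, while pseudocounts of 0.1 and 1 CPM gave 12 and 11 and CPM without TMM scaling 12. Of the 10 genes most like the members, Spearman's rho kept 7, a prior count of 0.5 kept 10 and the members without Ifit1, an alternative added after seeing the data, kept 8.

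The labels name no pairing of samples with the same replicate number. The deviations of such samples, control against highest dose, had a correlation over 0.1 in 2 of 5 numbers in experiment A, 4 of 5 in males of day 8, and 3 of 5 in each other table. Samples of unlike numbers were not compared, and a shared factor was not tested. The fit of Ifit1 could not be made with only the control and tested dose in the 4 comparisons of males and of females of day 29 in experiment B. At 0 to 13 reads Ifit1 gives no usable order among rats of its lower band.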

Other observations

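Interferon effectors aside, the step in Ifit1 was looked for in every gene tested in all 5 tables. A step was counted where the sorted reads of a table jumped at least 4-fold between neighbouring rats, with 5 or more rats on each side, in all 5 tables. Of 11066 genes 2 met this, Ifit1 and Ugt2b, a UDP-glucuronosyltransferase gene. Over all rats Ugt2b had at most 87 reads in one band and at least 12546 reads in the other, which held 67 rats. Both genes were singled out after their values were seen, and no explanation was tested.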
